A study of Sus scrofa with 8 samples.

Results

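The miRNAs miR-155 and miR-146 were described by 8 of the 686 targets of a porcine miRNA array hybridised with RNA of the corpus luteum, an ovarian gland that develops from the ovulated follicle and secretes progesterone. A target was taken as a member when its name, after the species prefix was dropped, was miR-155 or miR-146 with any letter or arm suffix. This gave 3 miR-155 targets (ssc-miR-155-5p, ssc-miR-155-3p and bta-miR-155) and 5 miR-146 targets (ssc-miR-146a-5p, ssc-miR-146a-3p, ssc-miR-146b, hsa-miR-146b-5p and mmu-miR-146b-3p). The prefixes ssc, bta, hsa and mmu stand for pig, cattle, human and mouse, and entries of several species for one miRNA were kept apart. The rule itself reads names and no measured value.

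The samples came from crossbred gilts aged 6 to 8 months, of like genetic background and a single commercial herd. Cyclic gilts were not inseminated and gave luteal tissue on day 14 of the estrous cycle (4 arrays). Pregnant gilts were inseminated 12 and 24 h after their second estrus was detected and gave luteal tissue on day 14 of pregnancy (4 arrays). The tissue was taken after death and snap-frozen, and each sample was hybridised on an array of its own from 100 ng of Cy3-labelled total RNA (RNA integrity number over 8). The labels number the samples of a group as biological replicates. Whole luteal tissue holds steroidogenic, vascular, stromal and blood-borne cells, so fewer cells of a type and less RNA per cell cannot be told apart in these values.

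miR-155 is processed from a non-coding transcript that macrophages, dendritic cells and activated lymphocytes induce through Toll-like receptor and NF-κB signalling, and SOCS1 and SHIP1 are among its known targets. miR-146a and miR-146b come from separate genes and share a seed, the stretch that pairs with target messages. NF-κB induces miR-146a, which lowers the signalling adaptors TRAF6 and IRAK1 and so acts as a brake on the same pathway. Regression of the corpus luteum at the end of a cycle without pregnancy is known to be accompanied by an influx of macrophages and lymphocytes. In the RefSeq gene table of assembly Sscrofa11.1, MIR155 lies between a long non-coding RNA gene and MRPL39, a mitochondrial ribosomal protein gene. MIR146A lies between a long non-coding RNA gene and PTTG1, the securin gene, and MIR146B next to CUEDC2. No genome build is named for the array values, and only these gene orders were taken from the assembly.

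Each array held 13720 spots, of which 22.8% to 28.8% were well above background, and the 75th percentile of intensity ranged from 189 to 316. Of the 686 targets, 212 (30.9%) were detected on at least 4 arrays and were tested, 166 were detected on all 8 and 446 (65.0%) on none. Pregnant replicates 1 and 2 shared slide 1, cyclic replicates 1 and 2 shared slide 2, and replicates 3 and 4 of both groups shared slide 3. Slide 1 was scanned on another day than slides 2 and 3. The labelled tissue was checked against marker miRNAs: the gonad-enriched ssc-miR-202-3p was detected on all 8 arrays, while all 6 targets of the muscle list, both of the liver list and 7 of 8 of the epithelial list were detected on none. Cyclic replicate 1 stood apart from the other cyclic arrays. Of the 13 targets that were lower in pregnancy, it was the lowest cyclic array in 9 and lay at or below the highest pregnant array in 2. Over all 212 tested targets it was the lowest cyclic array in 73 (34.4%). Leaving it out raised the number of targets that passed from 24 to 81. The members, pairs, nearest patterns and list counts are therefore given with and without it. As it was singled out from these same values, p-values without it are not independent of that choice.

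The 8 members divided evenly between 4 that were detected on at least 4 arrays and 4 that were detected on none. The former were ssc-miR-155-5p, bta-miR-155 and ssc-miR-146a-5p, each on all 8 arrays, and hsa-miR-146b-5p, on 2 cyclic and 3 pregnant arrays. The strands named 3p, which are the partners of the 5p strands in each hairpin, were all among the latter. Of the spots of ssc-miR-155-3p, 0 of 153 were well above background, and the probe intensities lay between −2.59 and 1.32. For ssc-miR-146a-3p the same held for 0 of 157 spots, with intensities from −1.67 to 0.67, and for mmu-miR-146b-3p for 0 of 154 spots, with intensities from −2.97 to 0.70. The porcine entry ssc-miR-146b was also undetected, with 0 of 152 spots and intensities from −1.58 to 5.64. These 4 members have no measured level here, and nothing can be said of a change in them. Detection was judged by the same rule for all targets, and 65.0% of the array was likewise detected nowhere.

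**Figure D1:**
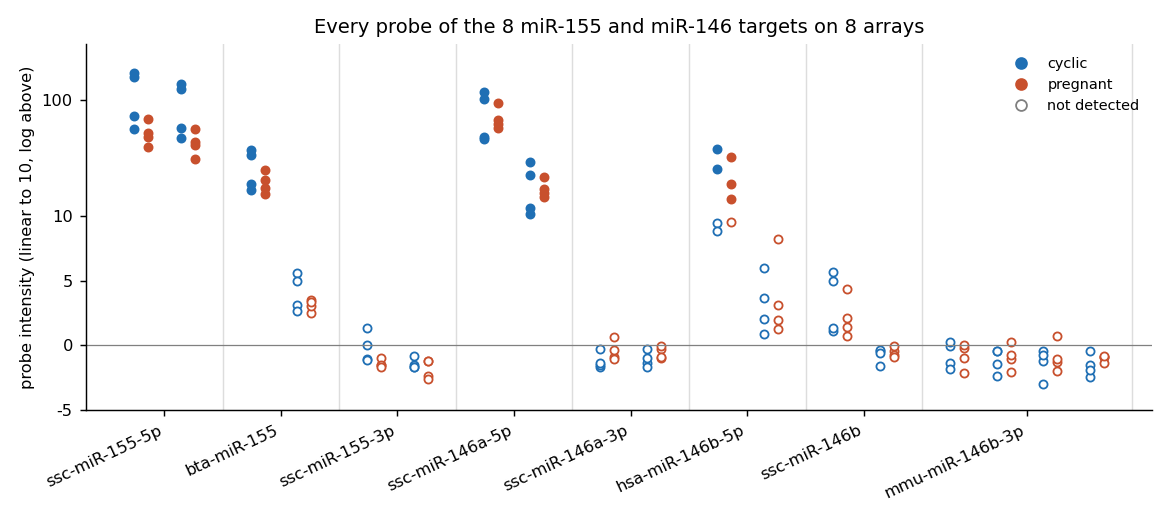
Background-subtracted intensity of every probe of the 8 targets (vertical axis, linear up to 10 and logarithmic above) by target (horizontal axis), with 1 point for each array, cyclic arrays in blue and pregnant arrays in orange, and open points where the probe was not detected. Both probes of ssc-miR-155-5p and of ssc-miR-146a-5p were detected on all 8 arrays, bta-miR-155 and hsa-miR-146b-5p were detected through 1 probe each, and the 4 other targets lay at the background.

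The level of ssc-miR-155-5p was lower in pregnancy. Its probe intensity was 55.6, 169, 71.6 and 157 in cyclic replicates 1 to 4, and 68.6, 51.4, 47.9 and 39.2 in pregnant replicates 1 to 4. After scaling to the 75th percentile of each array, the log2 level was −2.04, −0.82, −1.43 and −1.004 in the cyclic and −2.003, −2.20, −2.65 and −2.27 in the pregnant arrays. Cyclic replicates 2, 3 and 4 lay above every pregnant array, and the groups overlapped through cyclic replicate 1 alone, which lay just below pregnant replicate 1. Of the 212 tested targets, 36 (17.0%) had groups that did not overlap, 15 of them (7.08%) lower in pregnancy. The mean was −1.32 ± 0.54 (SD, n = 4) in the cyclic and −2.28 ± 0.27 (SD, n = 4) in the pregnant group.

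The pregnant level was 0.515 of the cyclic one (95% confidence interval 0.350 to 0.758), a log2 difference of −0.96 ± 0.25 (SE), and it passed with limma's adjusted p = 0.0324 over all 212 targets. Of those targets, 24 passed (11.3%), 13 of them lower in pregnancy (6.13%) and 11 higher (5.19%). Among the 4 tested members, ssc-miR-155-5p was the only one that passed. It ranked 13th of 212 by the size of its difference, and 9 targets had a more negative one. The median difference over all tested targets was 0.00. An exact permutation test on its 8 values alone gave p = 0.0571 (2-sided), where the smallest p that 4 against 4 arrays allow is 0.0286.

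**Figure D2:**
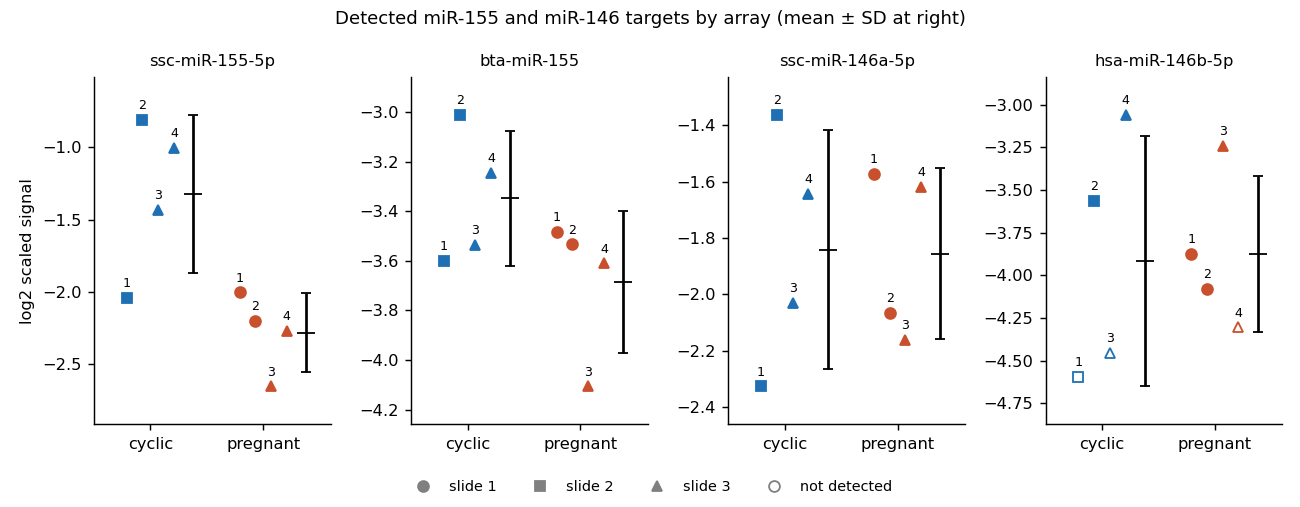
Log2 scaled signal (vertical axis, a separate scale for each target) of the 4 tested targets in cyclic and pregnant arrays (horizontal axis), labelled by replicate number and shaped by slide, with open symbols where the target was not detected and bars for the mean ± SD of 4 arrays. For ssc-miR-155-5p the 4 pregnant arrays lie between −2.65 and −2.003, and cyclic replicate 1 (−2.04) is the 1 cyclic array among them.

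The measurement of ssc-miR-155-5p was precise within an array. All 74 spots of its brighter probe were well above background, with a coefficient of variation between the spots of an array of 2.31% to 9.70%. Its second probe, with 78 of 78 spots well above background, read 46.7, 136, 57.0 and 123 in the cyclic and 56.4, 43.2, 40.7 and 31.0 in the pregnant arrays. That probe put the arrays of each group in the same order as the first and gave a difference of −0.92 against −0.96. The spread that limits the comparison therefore lay between arrays: the within-group SD of 0.43 was higher than that of 88.2% of the tested targets, whose median was 0.23.

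The call for ssc-miR-155-5p depended on single arrays and on the scaling, while its direction did not in any fit run. Without cyclic replicate 1 the difference was −1.20 ± 0.19 (SE) with limma's adjusted p = 0.000842. The remaining cyclic arrays, at −1.43 or above, then did not overlap the pregnant ones, which follows from the overlap having lain in that array alone. That array was singled out from these same values, so the p without it is no independent support. Leaving out any other array took the adjusted p of limma above 0.05. It was 0.0969, 0.0842 and 0.0950 without cyclic replicates 2, 3 and 4, and 0.0585, 0.0755, 0.0954 and 0.0958 without pregnant replicates 1 to 4, with differences from −1.05 to −0.79. Within slide 3, the one slide that held both groups, the difference was −1.24 ± 0.26 (2 against 2 arrays, limma's adjusted p = 0.0634). On the one scan day with arrays of both groups it was −1.14 ± 0.33 (4 cyclic against 2 pregnant arrays, limma's adjusted p = 0.118). When each array was divided by the 75th percentile over all probes, the median difference of all targets shifted to 0.30, and that of ssc-miR-155-5p was −0.66 (limma's adjusted p = 0.0659). With the arrays then centred on their median target it was −0.998 (limma's adjusted p = 0.0355). These scalings also moved the balance of all calls, from 11 higher and 13 lower to 55 and 7 with all probes, to 8 and 15 after centring, to 14 and 10 in the authors' deposited values and to 3 and 7 with the scanner's total gene signal.

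**Figure D3:**
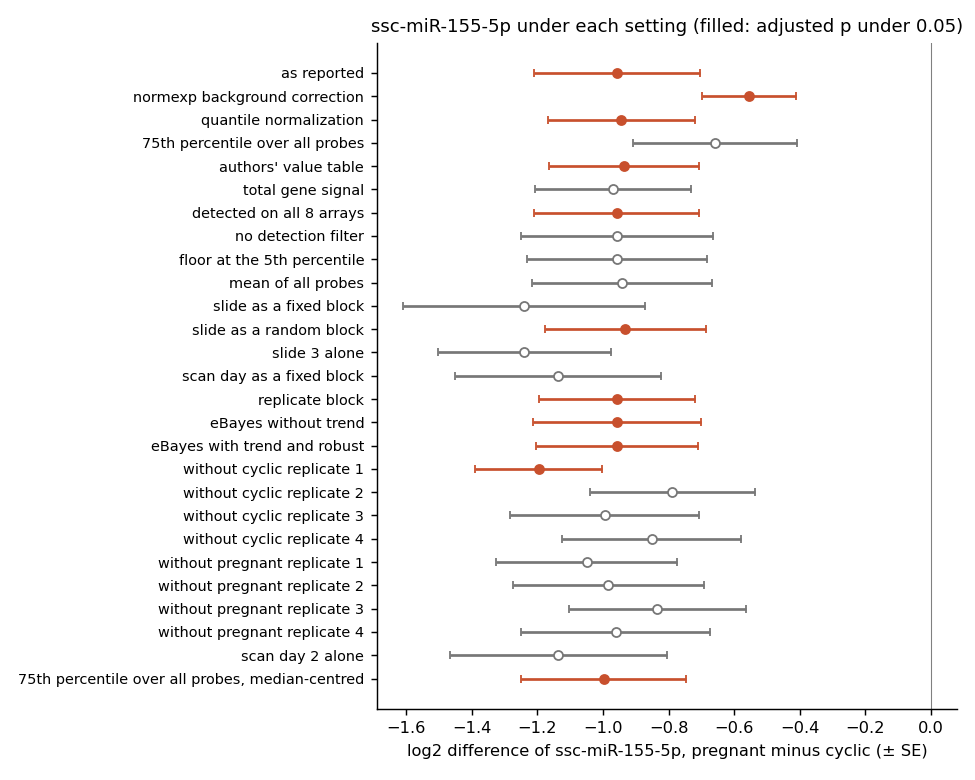
Log2 difference of ssc-miR-155-5p, pregnant minus cyclic (horizontal axis, points with ± SE), under the reported setting and each of the 26 other fits (vertical axis), filled where the adjusted p was under 0.05. All points lie below 0, from −1.24 to −0.56, and 10 of the 26 other fits passed.

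The cattle-named bta-miR-155 was detected on the same 8 arrays and did not pass. Its probe read 18.9, 36.9, 16.7 and 33.3 in cyclic replicates 1 to 4, and 24.6, 20.4, 17.5 and 15.5 in pregnant replicates 1 to 4. The log2 level was −3.60, −3.01, −3.54 and −3.24 in the cyclic and −3.48, −3.53, −4.11 and −3.61 in the pregnant arrays. The groups overlapped: cyclic replicates 2 and 4 were the highest of the 8 arrays, while cyclic replicates 1 and 3 lay among the pregnant ones. The means were −3.35 ± 0.27 and −3.68 ± 0.29 (SD, n = 4 each). The pregnant level was 0.793 of the cyclic one with a 95% interval of 0.586 to 1.07, a log2 difference of −0.34 ± 0.20 (SE, limma's adjusted p = 0.269).

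This value rests on a single dim probe. Of its spots, 76 of 77 were well above background, with a coefficient of variation of 6.71% to 28.8% within an array, while 0 of 77 spots of the second probe were, at intensities of 2.48 to 5.56. In both groups bta-miR-155 put the arrays in the same order as ssc-miR-155-5p, from cyclic replicate 2 through 4 and 3 to 1 and from pregnant replicate 1 through 2 and 4 to 3. Both entries carry the name of the same miRNA, and the sequences of their probes were not used here, so the levels of the 2 entries are not compared. Without cyclic replicate 1 the difference of bta-miR-155 was −0.42 (limma's adjusted p = 0.134).

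The level of ssc-miR-146a-5p, the strand through which miR-146a is known to lower TRAF6 and IRAK1, did not pass. Its probe read 45.6, 115, 47.3 and 101 in cyclic replicates 1 to 4, and 92.5, 56.4, 67.3 and 61.4 in pregnant replicates 1 to 4. The corresponding log2 levels were −2.33, −1.36, −2.03 and −1.64, and −1.57, −2.07, −2.16 and −1.62. The pregnant arrays lay within the range of the cyclic ones, which held both the highest and the lowest array. The means were −1.84 ± 0.42 and −1.86 ± 0.30 (SD, n = 4 each), and the difference was −0.01 ± 0.23 (SE, limma's adjusted p = 0.967). The 95% interval of the ratio of pregnant to cyclic was 0.702 to 1.40, which overlaps the interval of 0.350 to 0.758 of ssc-miR-155-5p. Both targets were read on the same arrays, so this overlap does not test whether their changes differ. The comparison within arrays is given below. The second probe, also detected on all 8 arrays, gave a difference of 0.06. Without cyclic replicate 1 the difference was −0.17 (limma's adjusted p = 0.555).

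A signal under the name miR-146b was read only through 1 of the 2 probes of the human-named hsa-miR-146b-5p, close to the limit of detection. The other probe was detected on no array, with 2 of 80 spots well above background and intensities of 0.88 to 8.20, and ssc-miR-146b was undetected. Probe sequences were not used here, so whether this signal comes from miR-146b was not tested. The probe used read 9.46, 25.2, 8.81 and 37.8 in cyclic replicates 1 to 4, and 18.7, 14.0, 31.8 and 9.55 in pregnant replicates 1 to 4. It was not detected in cyclic replicates 1 and 3 and in pregnant replicate 4, whose values entered the fit as measured, above the floor at a log2 level of −4.85. The log2 levels were −4.60, −3.56, −4.46 and −3.06 in the cyclic and −3.88, −4.08, −3.24 and −4.31 in the pregnant arrays. Each group held arrays at both ends of this range, and the means were −3.92 ± 0.73 and −3.88 ± 0.46 (SD, n = 4 each). The difference was 0.04 ± 0.34 (SE, limma's adjusted p = 0.956), with a 95% interval of the ratio of 0.609 to 1.74. Its within-group SD of 0.61 was higher than that of 94.3% of the tested targets. Without cyclic replicate 1 the difference was −0.18 (limma's adjusted p = 0.713).

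**Figure D4:**
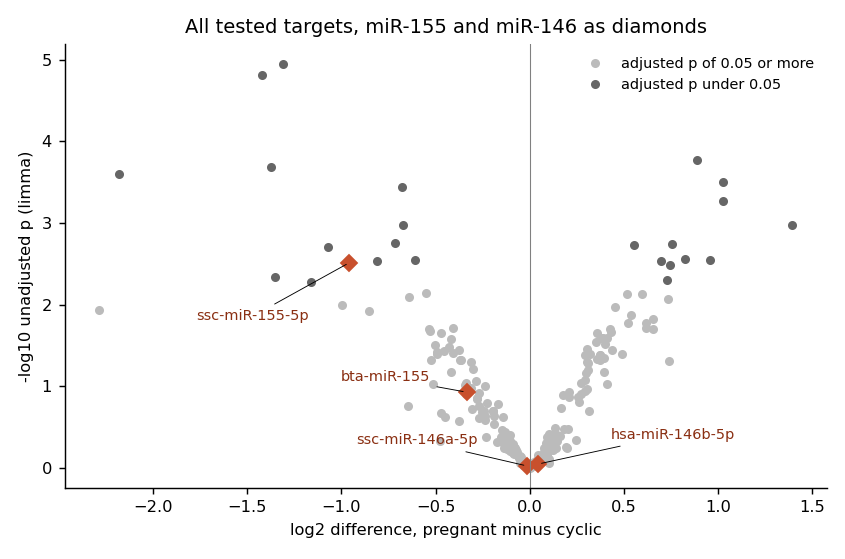
Log2 difference, pregnant minus cyclic (horizontal axis), against −log10 of limma's unadjusted p (vertical axis) for the 212 tested targets, dark where the adjusted p was under 0.05, with the 4 tested members as labelled diamonds. ssc-miR-155-5p lies at −0.96 among the 13 targets that were lower in pregnancy, and both miR-146 diamonds lie close to 0.

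Whether the members differed from each other in their change was tested on the difference of a pair within each array, for all 6 pairs of tested members. Relative to ssc-miR-155-5p, the signal of ssc-miR-146a-5p lay at −0.64 to −0.29 on the log2 scale in the cyclic arrays and at 0.14 to 0.65 in the pregnant ones. The groups did not overlap, and the difference in change was 0.94 (exact permutation test, 2-sided p = 0.0286, adjusted over the 6 pairs 0.0571). For hsa-miR-146b-5p against ssc-miR-155-5p the within-array difference was −3.02 to −2.06 in the cyclic and −2.04 to −0.59 in the pregnant arrays, a difference in change of 1.00 with the same exact p-values. For bta-miR-155 against ssc-miR-155-5p it was −2.24 to −1.56 and −1.48 to −1.33, a difference in change of 0.62, again with p = 0.0286 and 0.0571 by the exact permutation test. Those 3 pairs reached the smallest p the design allows and missed the threshold after adjustment. Passing takes more than 3 of the 6 pairs at that smallest p, and only 3 hold ssc-miR-155-5p. A change in that target alone could therefore not pass after adjustment, whatever its size. Of the 211 other tested targets, 83 (39.3%) also separated the groups when set against ssc-miR-155-5p, 82 of them (38.9%) by being relatively higher in pregnancy, so the separation is not particular to the members. The 3 differences in change without cyclic replicate 1 were 1.02, 1.01 and 0.78, with exact permutation p-values adjusted over the pairs of 0.0857, 0.114 and 0.0857. That of hsa-miR-146b-5p against ssc-miR-155-5p fell to 0.67 without pregnant replicate 3 (exact permutation p = 0.0571, adjusted 0.114) and was 0.56 with normexp background correction, where that of ssc-miR-146a-5p was 0.52. All 3 stayed positive with each array left out and under the other settings run. None passed after adjustment, which again takes more than 3 of the 6 pairs at the smallest p.

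The 3 pairs without ssc-miR-155-5p overlapped between the groups. The difference in change was −0.32 for bta-miR-155 against ssc-miR-146a-5p (exact permutation p = 0.114, adjusted 0.171). It was −0.38 for bta-miR-155 against hsa-miR-146b-5p (exact permutation p = 0.457, adjusted 0.549) and 0.06 for hsa-miR-146b-5p against ssc-miR-146a-5p (exact permutation p = 0.914, adjusted 0.914). With cyclic replicate 1 left out these were −0.24, −0.24 and −0.00746, with adjusted exact permutation p of 0.214, 0.823 and 1.

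Within the cyclic group the 4 tested members shared an order that the group labels do not give. Cyclic replicates 2 and 4 were the 2 highest arrays, cyclic replicate 3 came next and cyclic replicate 1 was the lowest in each of the 4. The same order was found in 29 of the 212 tested targets (13.7%), and cyclic replicate 1 was the lowest cyclic array in 73 (34.4%). From highest to lowest this spanned 1.22 for ssc-miR-155-5p, 0.96 for ssc-miR-146a-5p, 0.59 for bta-miR-155 and 1.53 for hsa-miR-146b-5p on the log2 scale. The pregnant arrays had no order common to all 4: pregnant replicate 1 was the highest in the 2 miR-155 targets and in ssc-miR-146a-5p, and pregnant replicate 3, the lowest of these, was the highest in hsa-miR-146b-5p. Before scaling, the 75th percentile of intensity was 229, 297, 193 and 316 in cyclic replicates 1 to 4, highest in cyclic replicates 2 and 4 too. In pregnant replicates 1 to 4 it was 275, 236, 301 and 189, the order of hsa-miR-146b-5p. The part of array brightness in these orders was not tested.

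Likeness of pattern was measured as the root mean square difference of centred log2 levels over the 8 arrays, among 208 tested targets of other miRNA numbers. Nearest to ssc-miR-155-5p were ssc-miR-9852-3p (0.291), ssc-miR-29b (0.299) and ssc-miR-1249 (0.335), against a median of 0.632 over all candidates. Of these, ssc-miR-9852-3p was itself lower in pregnancy (−0.81 ± 0.21 SE, limma's adjusted p = 0.0324). Nearest to bta-miR-155 were ssc-miR-652 (0.119), ssc-miR-29c (0.165) and ssc-miR-18a (0.182), with a median of 0.368. Nearest to ssc-miR-146a-5p were mmu-miR-101c (0.216), ssc-miR-101 (0.220) and ssc-miR-22-5p (0.227), with a median of 0.414. Nearest to hsa-miR-146b-5p were ssc-miR-20a (0.396), mmu-miR-28c (0.401) and mmu-miR-20b-5p (0.407), with a median of 0.625. The 2 entries of miR-155 differed from each other by 0.369, and of the 208 candidates 7 lay closer to ssc-miR-155-5p and 105 closer to bta-miR-155 than the other entry did. The 2 tested entries of miR-146 differed by 0.503, which is above the median candidate's distance to ssc-miR-146a-5p, and 32 candidates lay closer to hsa-miR-146b-5p. Over the 7 arrays without cyclic replicate 1, 2 of the 3 nearest targets were shared for ssc-miR-155-5p (ssc-miR-9852-3p and ssc-miR-29b) and for bta-miR-155 (ssc-miR-652 and ssc-miR-29c), and 1 of 3 for ssc-miR-146a-5p (ssc-miR-22-5p) and for hsa-miR-146b-5p (mmu-miR-20b-5p).

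Other miRNAs known to respond to inflammatory signalling were taken from a list of 21 targets (miR-9, miR-21, miR-125a, miR-125b, miR-132, miR-147, miR-187, miR-212, miR-221, miR-222, let-7e and let-7i). Of these, 11 were tested and 9 were detected on no array. By limma, 3 of the 11 were lower in pregnancy, 0 were higher and 8 did not pass (an unadjusted p under 0.05 was found for 7 of the 11, 4 lower and 3 higher, and for 73 of all 212), with a median difference of −0.02 against 0.00 over all tested targets, of which 6.13% were lower. The 3 were mmu-miR-21a-3p, the passenger strand of miR-21 (−2.18 ± 0.41 SE, adjusted p = 0.0106), ssc-miR-132, a miRNA induced by cAMP signalling (−1.35 ± 0.38, adjusted p = 0.0444), and hsa-miR-125a-3p, the passenger strand of miR-125a (−1.16 ± 0.34, adjusted p = 0.0463), all by limma. The listed hsa-miR-125a-5p (0.39 ± 0.15, limma's adjusted p = 0.111) and ssc-miR-125a (0.39 ± 0.17, limma's adjusted p = 0.142) had the opposite sign and did not pass. Another 4 targets were named for the highest mean signal in the list, a ranking across different probes. They did not pass: the difference was −0.37 for ssc-miR-21, −0.03 for ssc-miR-125b, 0.43 for ssc-let-7e and −0.02 for ssc-let-7i (limma's adjusted p = 0.142, 0.937, 0.104 and 0.948).

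Cyclic replicate 1 was low in this list too. The log2 level of ssc-miR-132 was −1.004 there against 0.99, 0.83 and 0.96 in cyclic replicates 2 to 4, and −0.87, −0.94, −1.20 and −0.62 in the pregnant arrays. For mmu-miR-21a-3p it was −2.36 against −0.41, −0.25 and −0.16, and −2.94, −2.72, −3.05 and −3.20. In both, cyclic replicate 1 lay with or near the pregnant arrays while the other cyclic arrays lay apart. Without it 6 of the 11 passed, 4 lower (the former 3 and ssc-miR-21, at −0.47) and 2 higher (ssc-let-7e at 0.58 and hsa-miR-125a-5p at 0.50). Of all 212 tested targets 81 passed in that fit, 40 lower and 41 higher. Leaving out any other single array left 1 of the 11, and 7 to 12 of the 212.

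Leukocytes are a known source of miR-155, so the leukocyte list (miR-223 of granulocytes and monocytes, miR-142 of all blood lineages, miR-150 of lymphocytes and miR-342) was set beside it. Of its 8 targets 4 were tested, and by limma 0 passed (1 had an unadjusted p under 0.05), with a median difference of −0.38. The level of hsa-miR-223-3p was −3.16, −0.33, −0.02 and 1.74 in cyclic replicates 1 to 4 and −2.65, −2.84, −2.68 and −2.74 in pregnant replicates 1 to 4. Cyclic replicates 2, 3 and 4 thus lay above every pregnant array and cyclic replicate 1 below them all. Its difference was −2.29 ± 0.76 (SE, limma's adjusted p = 0.0768). For ssc-miR-142-5p the levels were −3.73, −2.17, −2.78 and −0.96, and −3.11, −3.02, −3.06 and −3.04, with the same 3 cyclic arrays above all pregnant ones and a difference of −0.65 ± 0.45 (limma's adjusted p = 0.349).

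The other 2 tested leukocyte targets differed less between the groups, at −0.10 for mmu-miR-342-3p (limma's adjusted p = 0.783) and 0.01 for ssc-miR-150 (limma's adjusted p = 0.967). Without cyclic replicate 1, hsa-miR-223-3p (−3.19 ± 0.37, adjusted p = 7.54e-05) and ssc-miR-142-5p (−1.09 ± 0.32, adjusted p = 0.0211) were lower in pregnancy by limma, and mmu-miR-342-3p (−0.24) and ssc-miR-150 (−0.08) did not pass. Of all 212 tested targets 40 were lower in that fit and 41 higher. The log2 of the summed signal of the 4 tested leukocyte targets ranged from −1.46 to 2.06 over the cyclic and from −1.11 to −0.92 over the pregnant arrays. The 4 that were detected on no array were ssc-miR-142-3p, ssc-miR-342 and the 5p strands mmu-miR-223-5p and mmu-miR-342-5p. Of the 4 tested, hsa-miR-223-3p and ssc-miR-142-5p were thus high in the same 3 cyclic arrays as ssc-miR-155-5p, though highest in cyclic replicate 4 where ssc-miR-155-5p was highest in cyclic replicate 2. The inflammation-responsive ssc-miR-132 and mmu-miR-21a-3p also lay above every pregnant array in those 3. The leukocyte targets mmu-miR-342-3p and ssc-miR-150 did not. How many of all 212 tested targets did so was not counted, so the pattern cannot be called particular to the targets named here. The part of leukocyte miRNAs in the difference of ssc-miR-155-5p was not tested.

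**Figure D5:**
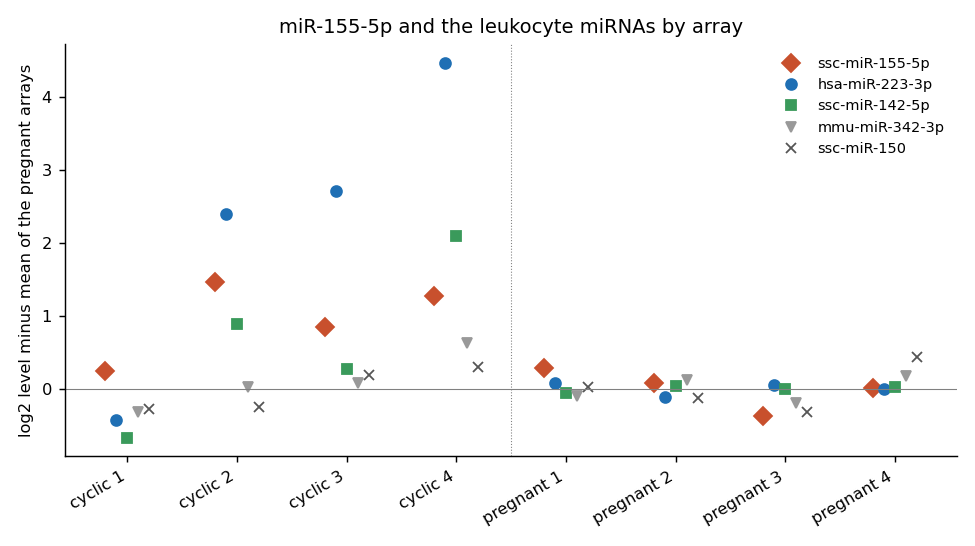
Log2 level of ssc-miR-155-5p and of the 4 tested leukocyte targets minus the mean of each over the pregnant arrays (vertical axis), for each of the 8 arrays (horizontal axis, points offset sideways for legibility). In cyclic replicates 2, 3 and 4 ssc-miR-155-5p, hsa-miR-223-3p, ssc-miR-142-5p and mmu-miR-342-3p lie above 0, the last only just in cyclic replicate 2. The points of ssc-miR-150 lie above 0 in cyclic replicates 3 and 4 and below it in cyclic replicate 2. In cyclic replicate 1 the 4 leukocyte targets lie below 0 and ssc-miR-155-5p lies above it.

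Of the other cell type lists, 0 of 2 tested endothelial, 0 of 4 smooth muscle, 0 of 5 fibroblast, 0 of 2 erythroid, 0 of 1 epithelial and 0 of 2 gonad targets passed by limma, with median differences of 0.04, −0.15, −0.45, −0.02, 0.04 and 0.23. The unadjusted p was under 0.05 for 1 fibroblast and 1 gonad target and for 0 in the 4 other lists. The summed fibroblast signal (miR-199a, miR-199b and miR-214) had a log2 of 1.84 to 3.09 over the cyclic and 1.95 to 2.11 over the pregnant arrays. When cyclic replicate 1 was left out, 4 of the 5 fibroblast targets were lower in pregnancy by limma (ssc-miR-199a-3p, ssc-miR-199a-5p, ssc-miR-199b-3p and ssc-miR-199b-5p), with a median difference of −0.70, and ssc-miR-202-3p of the gonad list was higher. In that fit 40 of all 212 tested targets were lower and 41 higher, with a median difference of −0.02. The part of the miRNAs of these lists in the difference of ssc-miR-155-5p was not tested.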

How the data were processed

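Luteal RNA of 4 cyclic and 4 pregnant gilts was measured on 1-colour Agilent arrays, grouped by the labels. The intensity of each spot in the deposited scanner output was background-subtracted by Agilent Feature Extraction 10.7.3.1 per the file headers (10.7 per the submitters' processing notes). A value table that the authors deposited was used as an alternative alone. Against scanner values over 2806 bright spots (r of 0.878 to 0.974) its deposited values are on a log2 scale, centred on the median of each spot and run in the same direction; the scaling between arrays is unknown. The deposited columns with the 3 cells above 100 were taken as a score, and those cells as missing. The median of its column was 0.0108, −0.000283, 0.000689 and −0.000205 in the cyclic group (replicates 1 to 4) and −0.000302, 9.45e-05, −9.45e-05 and 0.0318 in the pregnant group.

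Control spots (715 per array) and outlier spots (384 to 453) were left out. Spots of a probe were averaged and divided by the array's 75th percentile over targets detected on all 8 arrays. Log2 was taken after a floor was set at the 1st percentile of detected probes (−4.85). Detection of a probe required that a share of 0.5 or more of the array's spots for it be well above background. The probe of highest mean stood for a target. Beyond this and the naming of the listed targets of highest signal, levels of different probes were not ranked. Targets detected on at least 4 arrays (163 porcine, 49 of other species) were tested with limma 3.58.1 (lmFit, eBayes with trend) in R 4.3.3, 2-sided, with Benjamini-Hochberg adjustment over 212 targets at 0.05. Pairs of members were tested by exact permutation (70 splits). Array number limits the precision, and p-values measure the spread between these samples. Computations were tested on simulated data.

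Members, lists and tests were chosen with earlier results of these data known. Named were all members, the 3 targets nearest in pattern to each tested member, listed inflammation-responsive targets that passed or were among the 4 of highest signal, and leukocyte targets. The targets hsa-miR-125a-5p, ssc-miR-125a, ssc-miR-202-3p and those of miR-199 were named after their values were seen. Alternatives were normexp (offset 50, on median spot signals), quantile and other scalings, the value table, total gene signal, other filters, floors and probe summaries, slide, scan day or replicate blocks, other variance models and each array left out. Scan day 2 alone, median centring, list counts under every setting, and the other cell type lists and nearest patterns without cyclic replicate 1 were added after seeing the data.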

Additional observations from a re-analysis of the deposited data

Results flagged for a closer look

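In 2 of the 22 groups of 4 arrays examined (11 targets: the tested members, the 4 tested leukocyte targets and the 3 inflammation-responsive targets that passed), 1 array lay far from the other 3 by Dixon's criterion, which chance meets in about 1 of 20 groups. Both were cyclic replicate 1. For mmu-miR-21a-3p its log2 level of −2.36 was separated from the nearest cyclic array (−0.41) by 0.885 of the group's range. For ssc-miR-132 its level of −1.004 was separated from the nearest cyclic array (0.83) by 0.918 of the range. None of the 8 groups formed by the 4 tested miR-155 and miR-146 targets met the criterion.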

How the results depend on the processing

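The number of targets that passed was 24 as reported. It was 11 with normexp background correction, 62 with the 75th percentile over all probes, 10 with the total gene signal, 1 without a detection filter, 11 with the floor at the 5th percentile, 11 with the mean of all probes, 9 on slide 3 alone, 2 with scan day as a fixed block, 2 on scan day 2 alone, and 7 to 81 with an array left out. For ssc-miR-155-5p the direction held in all 26 other fits and the call in 10. The call was lost with the 75th percentile over all probes (−0.66), the total gene signal (−0.97), no detection filter (−0.96), the floor at the 5th percentile (−0.96), the mean of all probes (−0.94), slide as a fixed block and slide 3 alone (both −1.24), scan day as a block and scan day 2 alone (both −1.14) and by the exact permutation test (−0.96), with adjusted p from 0.0555 to 0.326 in the fits. Leaving out each array gave −1.20 to −0.79. Without a detection filter all 686 targets were adjusted over. The unadjusted p of limma for ssc-miR-155-5p also rose there, from 0.00306 to 0.0153, at the same difference. The cause of the lost calls was not tested. bta-miR-155 stayed negative and did not pass in any fit (−0.51 to −0.04). The sign turned for ssc-miR-146a-5p with the 75th percentile over all probes (0.29), quantile normalization (0.00765), the mean of all probes (0.00178) and arrays left out (−0.17 to 0.15). It turned for hsa-miR-146b-5p with the mean of all probes (−0.0867), slide as a fixed block and slide 3 alone (both −0.0156) and arrays left out (−0.18 to 0.33). For hsa-miR-146b-5p against ssc-miR-146a-5p it turned with the mean of all probes (−0.0885) and arrays left out (−0.26 to 0.28). None of these reached the threshold. Of the inflammation-responsive targets 0 to 6 passed over the settings (3 as reported), and of the leukocyte targets 0 to 2. Same-numbered replicates correlated at 0.104, 0.0975, −0.177 and 0.160 and share only a number: with the replicate block 26 targets passed, 22 of them among the 24, ssc-miR-155-5p at −0.96 with limma's adjusted p = 0.0328. Dim probes limit bta-miR-155 and hsa-miR-146b-5p, and 4 arrays a group limit all comparisons.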
